A study of Oryza sativa with 18 samples.

Results

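Gene expression was compared between embryos of the csa mutant and of wild type rice (line 9522) after 12 h of imbibition, the uptake of water that starts germination. The genes described are all 85 entries of the authors' table for this time, which lists only genes that they called, out of 3149 genes called at any of the 3 times of the series. The series measured embryos of both genotypes by RNA sequencing at 3 h, 6 h and 12 h, with 3 libraries per genotype and time and 18 in all. At 12 h the csa group held 3 libraries of csa mutant embryos and the wild type group 3 libraries of 9522 embryos, both from dehulled, surface-sterilised seeds germinated at 28 °C. Each RNA extraction used 5 seeds, and the labels give the tissue as embryo. The labels name no csa allele and give no seed lot or plant for a replicate, so the errors below measure the spread between libraries, which may be technical. Whether fewer cells of a type or less RNA per cell lies behind a lower count cannot be told apart in such samples.

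The product of CSA (CARBON STARVED ANTHER) is a MYB-type transcription factor, studied chiefly for the supply of sugar to the anther. During imbibition a cereal embryo leaves the dry state. Transcripts of desiccation protection, small heat shock proteins and seed storage decline from their levels in the mature seed, while those of respiration, cell wall loosening and growth follow. Abscisic acid, made through 9-cis-epoxycarotenoid dioxygenases, maintains dormancy and restrains germination.

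A call meant a false discovery rate (FDR) of up to 0.05 and an absolute log2 fold change of at least 1 in the authors' deposited table. By these thresholds 45 genes were higher and 40 lower in csa, together 0.400% of the 21242 genes that the deposited p and FDR values imply were tested. The higher calls were 0.212% and the lower calls 0.188% of the tested genes. At any fold change at least 112 genes, or 0.527%, passed the FDR threshold. That is the rank implied for the listed gene with the largest p, so unlisted genes just under the threshold may be missed. The same thresholds called 4.91% of tested genes at 3 h and 10.3% at 6 h. CSA itself (LOC_Os01g16810) was not among the listed genes at 12 h, and its counts at that time were not analysed here.

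Values below are raw read counts per library, and log2 ratios divide the mean csa count by the mean wild type count, with 3 libraries per genotype and a standard error (SE) from the spread of the libraries. Because the table holds only genes that the 12 h contrast selected, these differences describe the list. A later refit of the same rows shows how the calls depend on the method and on single libraries, and is no further evidence for them. The 3 csa counts and the 3 wild type counts did not overlap in 84 of the 85 genes. The exception was the lipid transfer protein gene LOC_Os08g03690. The median log2 ratio was 1.45 over the higher genes and -1.68 over the lower genes, and 22 genes had an absolute log2 ratio of 2 or more. Total depth is unknown, since only rows of called genes were at hand. The relative scaling of the 6 libraries, recovered from the deposited fold changes, lay between 0.919 and 1.09. With this scaling the groups did not overlap in any of the 85 genes.

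One label conflict concerns the third wild type library, whose title and description say wild type but whose genotype entry says mutant. It was grouped by its title. It had 0 counts of LOC_Os01g05510 and 0 of LOC_Os01g05530, genes with 50 to 117 counts in every csa library. For LOC_Os03g42235 it had 6 counts, against 112 to 213 in the csa libraries. These genes were picked after their values were seen. The list itself was made with this library in the wild type group, so its counts here cannot check its label. Among the wild type libraries the third also lay nearest the csa counts, in 22 of the 45 higher and 20 of the 40 lower genes. Wild type replicate 1 was nearest in 18 and 15 and replicate 2 in 4 and 5, with 1 tie. At the start of chromosome 1, described below, the third was nearest in 6 of 9 higher and 8 of 12 lower genes, and replicate 1 in 2 and 3. Elsewhere replicates 1 and 3 were equal, each nearest in 16 of 36 higher and 12 of 28 lower genes. Among the csa libraries, replicate 2 was nearest to the wild type in 18 higher and 17 lower genes, replicate 1 in 20 and 13, and replicate 3 in 7 and 9, with 1 tie. These tallies use raw counts without the recovered scaling, which was 0.919 for csa replicate 1 and 1.09 for csa replicate 2.

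Listed genes were unevenly placed in the genome. Of the 85 genes, 21 (24.7%) had identifiers beginning LOC_Os01g0, at the start of chromosome 1, against 6.00% of the 1050 entries called at 3 h and 4.31% of the 2388 called at 6 h. The 16 of them that matched RefSeq (assembly ASM3414082v1) by gene number lay within a run of 467 neighbouring genes, 1.19% of the 39387 genes of that annotation. That run was drawn between the outermost of these 16 genes, so the members themselves set its width. It ends before LOC_Os01g08440, which had no match. Another 4 listed genes lay farther along chromosome 1, the nearest by identifier being LOC_Os01g12110, while the last inside the stretch was LOC_Os01g08440. Chromosome 3 carried 18 listed genes, 9 higher and 9 lower, and each chromosome other than 1 and 3 held between 2 and 9. Within the stretch 9 genes were higher and 12 lower in csa, so no common direction held. The median absolute log2 ratio was 1.69 in the stretch and 1.46 in the other 64 genes.

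The largest ratios at the start of chromosome 1 belonged to 2 genes that are next to each other in RefSeq order and had almost no reads in the wild type. LOC_Os01g05510, annotated as a conserved hypothetical protein, had 78, 117 and 88 counts in csa embryos, against 0, 0 and 0 in wild type embryos. With a floor of 3 counts over the wild type group, it was at least 94.3-fold higher in csa. LOC_Os01g05530 encodes a Brix domain protein, a family known in yeast for ribosome assembly. It had 50, 112 and 64 counts in csa, against 1, 0 and 0 in wild type, a ratio of 226 with an exact 95% interval of 40.2 to 8966 for counting error only. Without wild type replicate 1, the library with that count, its log2 ratio of 7.82 became a lower bound of 5.65 against the floor. The earlier libraries showed the same near absence from the wild type. LOC_Os01g05510 had 61, 66 and 92 counts in csa at 3 h and 57, 79 and 97 at 6 h. LOC_Os01g05530 had 75, 99 and 104 at 3 h and 123, 96 and 142 at 6 h. Both were at 0 in all 6 wild type libraries of those times. The cytosolic triosephosphate isomerase gene TPI (LOC_Os01g05490), separated from this pair by 1 RefSeq gene, was the most abundantly counted entry of the table. This enzyme interconverts the triose phosphates of glycolysis. TPI had 25991, 22190 and 24038 counts in csa embryos, against 11657, 12112 and 13557 in wild type embryos, a log2 ratio of 0.95 ± 0.09. With the recovered scaling its log2 ratio was 1.00.

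A pair of class I small heat shock protein genes, which encode chaperones that hold unfolded proteins without using ATP, also lay side by side there. HSP17.9B (LOC_Os01g04350) had 204, 219 and 213 counts in csa, against 56, 19 and 67 in wild type, a log2 ratio of 2.16 ± 0.44. HSP16.9C (LOC_Os01g04360) had 34, 40 and 26 in csa, against 2, 5 and 8 in wild type, a log2 ratio of 2.74 ± 0.53. Both were higher in every csa library than in any wild type library at 12 h, but their records at the earlier times differed. HSP17.9B was called lower in csa at 3 h, with 753, 663 and 992 counts in csa, against 2770, 2631 and 2750 in wild type, and was not listed at 6 h. HSP16.9C was called higher at all 3 times, with log2 ratios of 1.72 ± 0.23 at 3 h and 4.35 ± 1.00 at 6 h. The third gene of the heat shock list, HSP17.4 (LOC_Os03g16020), lies elsewhere. It had 158, 241 and 188 counts in csa, against 84, 103 and 62 in wild type, a log2 ratio of 1.24 ± 0.27, and was called higher at 6 h as well with 2.49 ± 0.72. All 3 listed matches of the heat shock search terms were thus higher in csa at 12 h, where 45 of all 85 listed genes were. At 3 h 11 of 15 matches were higher, close to the 746 of all 1050 calls. At 6 h 33 of 34 matches were higher, where 1395 of all 2388 calls were.

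The other higher genes of the stretch concern fermentation, peptide turnover, a RAV-type factor and the cytoskeleton by their annotation. A pyruvate decarboxylase gene (LOC_Os01g06660), whose product opens ethanolic fermentation, had 145, 373 and 232 counts in csa, against 65, 74 and 119 in wild type, a log2 ratio of 1.54 ± 0.47. A peptidase C26 gene (LOC_Os01g04620), of a family that includes gamma-glutamyl hydrolases, had 91, 95 and 128 in csa, against 11, 11 and 47 in wild type, and its log2 ratio was 2.19 ± 0.77. That value depended on wild type replicate 3, without which it was 3.25. LOC_Os01g04750 was annotated as similar to RAV2, a name of the same RAV family of DNA-binding factors as LOC_Os01g04800 below. The annotation spells the name out as a regulator of the vacuolar membrane ATPase, a role not tested here. The gene had 27, 83 and 46 counts in csa, against 18, 9 and 12 in wild type, a log2 ratio of 2.00 ± 0.54. The KIP1-like gene LOC_Os01g07360, of a family of plant actin-binding proteins, had 318, 537 and 436 in csa, against 174, 167 and 278 in wild type, a log2 ratio of 1.06 ± 0.33, and was called higher at 6 h too with 1.06 ± 0.37. Csa replicate 1 was the lowest csa library for all 4 of these genes, and wild type replicate 3 the highest wild type library for 3 of them.

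The 10 annotated lower genes of the stretch included 2 peptidase genes. The aspartic (A1) peptidase gene LOC_Os01g04710 had 927, 834 and 765 counts in csa, against 2312, 2412 and 2112 in wild type, a log2 ratio of -1.44 ± 0.10. The libraries of each genotype lay close together, and the gene was also called lower at 3 h with -1.13 ± 0.19 and at 6 h with -2.01 ± 0.33. The serine carboxypeptidase II gene LOC_Os01g06490, of a class of enzymes that release amino acids from protein ends, had 46, 12 and 57 counts in csa, against 186, 163 and 129 in wild type. Its log2 ratio was -2.06 ± 0.53 at 12 h and -3.01 ± 0.38 at 6 h.

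Another 4 lower genes there were annotated as other enzymes, while TPI and pyruvate decarboxylase, described above, were higher. The transferase family gene LOC_Os01g01520 had 421, 374 and 258 counts in csa, against 1183, 1269 and 892 in wild type, a log2 ratio of -1.67 ± 0.25, and stood at -2.05 ± 0.20 at 6 h. A glycosyltransferase gene (LOC_Os01g08440), of the family that attaches sugars to small molecules, had 229, 437 and 284 in csa, against 836, 781 and 722 in wild type, a log2 ratio of -1.30 ± 0.29. The limonene cyclase-like gene LOC_Os01g01780, annotated for monoterpene synthesis, had 35, 16 and 18 in csa, against 88, 73 and 61 in wild type. Its log2 ratio was -1.69 ± 0.41, and the csa counts stayed below all wild type counts at every time, with 9, 10 and 20 in csa, against 99, 96 and 112 in wild type at 3 h. The sugar or purine kinase gene LOC_Os01g01620 had 122, 135 and 120 in csa, against 215, 588 and 314 in wild type, a log2 ratio of -1.57 ± 0.44, and its wild type value leaned on replicate 2.

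The remaining lower genes of the stretch belong to regulation and the cytoskeleton, or have no known role. A RAV-like gene (LOC_Os01g04800), of a plant family of DNA-binding factors, had 1016, 1500 and 944 counts in csa, against 2130, 2669 and 2321 in wild type, a log2 ratio of -1.04 ± 0.24. It was called lower at all 3 times, with -2.16 ± 0.34 at 3 h and -1.31 ± 0.29 at 6 h. A kinesin gene (LOC_Os01g01570), for a microtubule motor, had 158, 81 and 149 in csa, against 420, 321 and 361 in wild type, a log2 ratio of -1.51 ± 0.29, after -2.15 ± 0.22 at 3 h and -2.69 ± 0.70 at 6 h. The stress-induced receptor-like kinase gene LOC_Os01g04460 had 30, 21 and 30 in csa, against 87, 98 and 90 in wild type, a log2 ratio of -1.76 ± 0.17. LOC_Os01g05180, which holds a domain of unknown function (DUF3681), had 35, 29 and 44 in csa, against 126, 109 and 82 in wild type, a log2 ratio of -1.55 ± 0.25. LOC_Os01g04460 was also called lower at 3 h with -1.28 ± 0.31, and LOC_Os01g05180 at 3 h with -2.34 ± 0.15 and at 6 h with -1.53 ± 0.09. The 2 lower genes of the stretch without annotation, LOC_Os01g01580 and LOC_Os01g04430, had log2 ratios of -2.48 ± 0.39 and -2.57 ± 0.62, and both were called lower at all 3 times. For LOC_Os01g04430 csa replicate 2 was lowest at 5 counts, and the log2 ratio ran from -3.20 without csa replicate 1 to -2.11 without csa replicate 2.

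**Figure D1:**
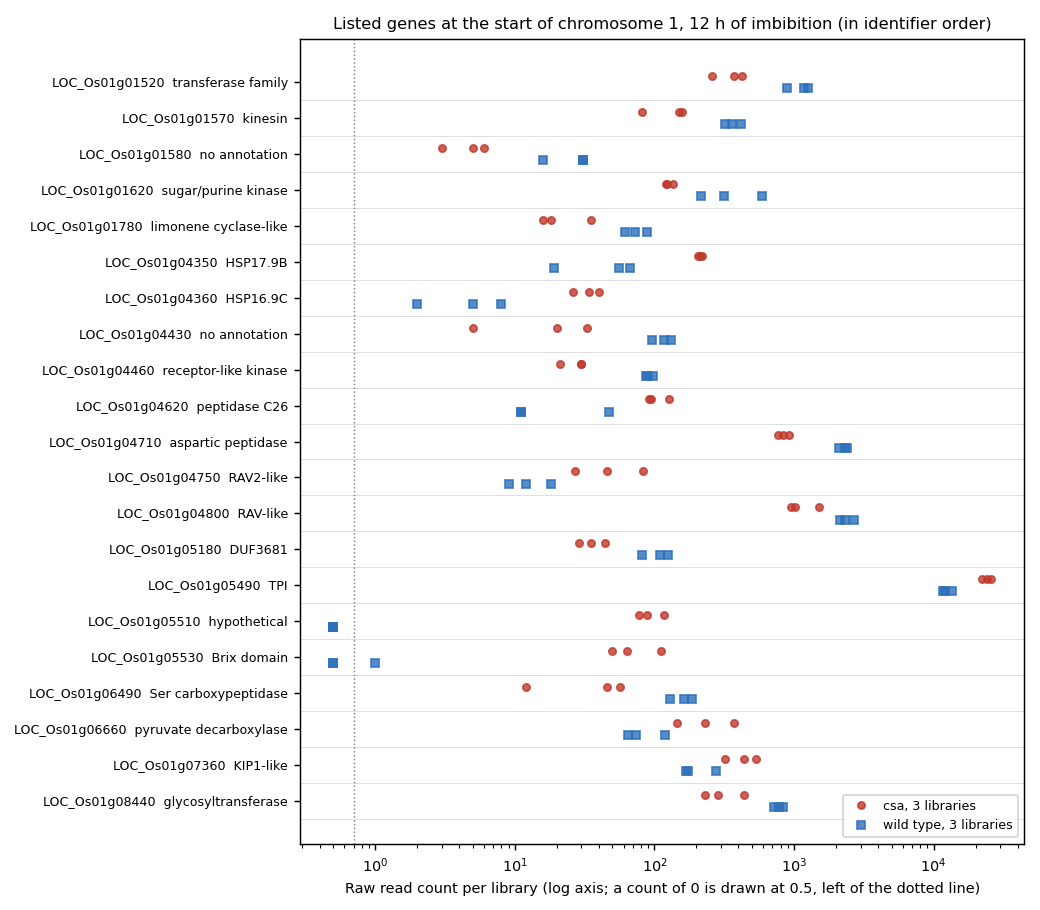
Raw read count per library (log axis) of the 21 listed genes at the start of chromosome 1 at 12 h, in identifier order, with 3 csa libraries as circles and 3 wild type libraries as squares. The groups are apart in all 21 genes, 9 with csa to the right and 12 with csa to the left, and 2 genes have wild type counts of 0 or 1.

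Outside this stretch 61 annotated genes were listed, 35 higher and 26 lower in csa. The gene with the smallest deposited FDR of all was the conserved hypothetical gene LOC_Os03g42235, at 2.38e-18 in the authors' deposited table. It had 112, 213 and 115 counts in csa, against 3, 7 and 6 in wild type, a log2 ratio of 4.78 ± 0.46, and the near absence from the wild type held at 3 h and 6 h, with log2 ratios of 5.46 ± 0.57 and 5.31 ± 0.84. No other gene outside the stretch exceeded a log2 ratio of 3 in either direction.

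Several higher genes belong by annotation to abscisic acid synthesis, late embryogenesis, dehydration stress or the stores of the mature seed. NCED3 (LOC_Os03g44380), for the dioxygenase of the rate-limiting step of abscisic acid synthesis, had 51, 24 and 62 counts in csa, against 10, 13 and 11 in wild type, a log2 ratio of 2.01 ± 0.37. It was called higher at 3 h as well, with 2.41 ± 0.36, and was the only listed match of the abscisic acid terms at 12 h. The group 1 late embryogenesis abundant gene LOC_Os08g23870, of proteins that protect drying tissue, had 671, 522 and 828 in csa, against 301, 167 and 225 in wild type, a log2 ratio of 1.54 ± 0.31. A dehydration stress-induced gene (LOC_Os06g11812) had 889, 850 and 1199 in csa, against 492, 203 and 291 in wild type, a log2 ratio of 1.58 ± 0.41. Both the late embryogenesis gene and the dehydration stress-induced gene were called higher at all 3 times. LOC_Os08g23870 had log2 ratios of 2.18 ± 0.31 at 3 h and 1.52 ± 0.31 at 6 h, and LOC_Os06g11812 had 1.36 ± 0.22 at 3 h and 1.54 ± 0.25 at 6 h.

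The glutelin gene LOC_Os02g14600, for a storage protein of the endosperm, had 3226, 1872 and 3846 counts in csa, against 1049, 464 and 582 in wild type, a log2 ratio of 2.09 ± 0.46. It was called higher at 3 h too, with 1.40 ± 0.22, and was the only listed match of the endosperm terms. The rice alpha-amylase/subtilisin inhibitor gene RASI (LOC_Os04g44470), whose product blocks starch- and protein-degrading enzymes, had 4035, 1960 and 5175 in csa, against 1026, 258 and 1132 in wild type, a log2 ratio of 2.21 ± 0.61. It was the only listed match of the aleurone terms, through the name of the enzyme it inhibits. The only match of the embryo terms was the late embryogenesis gene above. At 12 h neither the labelled tissue nor a contribution of endosperm could thus be checked against a wider marker set. The part of endosperm RNA in these results was not tested. In the libraries of the earlier times, the endosperm terms matched 4 calls at 3 h and 2 at 6 h, all higher in csa. The aleurone terms matched 5 and 2, all higher. Of the embryo matches 19 of 20 and 15 of 15 were higher, where 746 of all 1050 and 1395 of all 2388 calls were. The glutaredoxin gene GRXC6 (LOC_Os04g42930) stood at a log2 ratio of 1.40 ± 0.42. Csa replicate 2 was the lowest csa library for glutelin, RASI, GRXC6 and NCED3 and for the late embryogenesis and dehydration stress-induced genes. Yet it lay above every wild type library in each of them.

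The lipid transfer protein genes, whose small secreted products bind lipids, did not share a direction. The nsLTP2 gene LOC_Os05g47730 had 1015, 797 and 604 counts in csa, against 251, 227 and 427 in wild type, a log2 ratio of 1.42 ± 0.37, after 3.44 ± 0.34 at 3 h and 2.60 ± 0.47 at 6 h. LOC_Os05g40010 had 1068, 894 and 1319 in csa, against 526, 540 and 588 in wild type, a log2 ratio of 0.99 ± 0.17. LOC_Os08g03690 had 1003, 2198 and 906 in csa, against 5904, 7157 and 2098 in wild type, a log2 ratio of -1.88 ± 0.62. Here csa replicate 2 lay above wild type replicate 3 in raw counts, the single overlap in the table. With the recovered scaling all 85 listed genes were without overlap, including LOC_Os08g03690. This gene had been called higher in csa at 3 h with 1.10 ± 0.25 and at 6 h with 2.11 ± 0.62, without overlap at those times. Counts at the 3 times come from tables made separately, so only the ratios within a time are set side by side.

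The transcription factor search terms matched 1 listed gene, which was higher in csa. Another 4 entries outside the stretch, recognised by their annotation after their values were seen, were higher too, where 36 of all 64 listed genes outside the stretch were. This count leaves out the RAV-type genes inside the stretch, which went in opposite directions. LOC_Os01g04800 was lower in csa at -1.04 ± 0.24, and LOC_Os01g04750 was higher at 2.00 ± 0.54. The GRAS factor gene LOC_Os05g49930 had 45, 34 and 47 counts in csa, against 14, 15 and 11 in wild type, a log2 ratio of 1.66 ± 0.19, and was called higher at 3 h with 1.13 ± 0.40. The zinc finger gene LOC_Os03g60560, similar to ZPT2-14 of petunia, had 100, 160 and 126 in csa, against 41, 44 and 59 in wild type, a log2 ratio of 1.42 ± 0.26. It had a log2 ratio of 2.30 ± 0.11 at 6 h. NAC factor genes, of a plant family active in development and stress, made up the other 3 entries. LOC_Os02g15340 (GRAB2-like) stood at 1.52 ± 0.33, LOC_Os11g31380 at 1.45 ± 0.44 and LOC_Os05g34830 at 1.18 ± 0.30. The last of these had the same direction at 6 h with 1.25 ± 0.35, whereas the GRAB2-like gene had been lower in csa at 6 h with -1.77 ± 0.59.

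Signalling genes went in both directions. Protein kinase and receptor annotations outside the stretch gave 1 higher gene, LOC_Os04g56110, with 521, 684 and 634 counts in csa, against 275, 260 and 374 in wild type and a log2 ratio of 1.02 ± 0.20. The Pto-like kinase gene LOC_Os03g03280 had 135, 92 and 111 in csa, against 278, 419 and 407 in wild type, a log2 ratio of -1.71 ± 0.24. The resistance protein candidate LOC_Os05g25450 had 1151, 1080 and 1061 in csa, against 2181, 3167 and 2421 in wild type, a log2 ratio of -1.24 ± 0.17. In both genes every csa library lay below every wild type library. The leucine-rich repeat gene LOC_Os03g05140 had 14, 83 and 23 in csa, against 240, 295 and 113 in wild type, and its log2 ratio of -2.43 ± 0.86 became -3.55 without csa replicate 2. LOC_Os01g68510, annotated with a receptor region of the TGF-beta type, had 89, 78 and 68 in csa, against 374, 377 and 106 in wild type, a log2 ratio of -1.87 ± 0.47. With the sugar or purine kinase and the receptor-like kinase of the chromosome 1 stretch, 5 of the 6 listed matches of the kinase and defence terms were lower, where 40 of all 85 listed genes were. The terms take in a sugar or purine kinase and miss the thaumatin gene LOC_Os12g43450, which was higher. They also miss the leucine-rich repeat gene LOC_Os03g05140 described above, which was lower and is not among the 6.

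Phytosulfokines are short secreted peptides that promote cell growth, and their precursor genes moved oppositely. LOC_Os03g12990 had 18, 44 and 28 counts in csa, against 6, 1 and 5 in wild type, a log2 ratio of 2.91 ± 0.66, and was called higher at 3 h too with 1.88 ± 0.50. LOC_Os03g47230, similar to the phytosulfokine 3 precursor and listed in RefSeq as a long non-coding RNA, had 87, 103 and 46 in csa, against 384, 324 and 163 in wild type, a log2 ratio of -1.88 ± 0.45. A protein phosphatase 2C gene, PP2C29 (LOC_Os03g10950), stood at 1.07 ± 0.29 and was called higher at 6 h with 1.69 ± 0.41. The phospholipase D gene LOC_Os06g40180, for an enzyme that makes phosphatidic acid, had 33, 121 and 84 in csa, against 340, 222 and 420 in wild type, a log2 ratio of -2.04 ± 0.53. The annexin gene LOC_Os05g31750, for a calcium-dependent membrane-binding protein, had 66, 86 and 72 in csa, against 161, 208 and 251 in wild type, a log2 ratio of -1.47 ± 0.21.

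Transport genes included 2 of the SWEET family of sugar carriers, in opposite directions. SWEET15 (LOC_Os02g30910) had a log2 ratio of -1.48 ± 0.34, with 588, 467 and 601 counts in csa, against 1831, 1916 and 858 in wild type. SWEET16 (LOC_Os03g22200), a name that RefSeq gives to an entry the authors annotated as a cytochrome c oxidoreductase, had 79, 56 and 89 in csa, against 36, 26 and 24 in wild type, a log2 ratio of 1.38 ± 0.27. It was called higher at all 3 times, with 1.04 ± 0.24 at 3 h and 1.10 ± 0.39 at 6 h. The urea transporter gene DUR3 (LOC_Os10g42960) had 16, 36 and 11 in csa, against 77, 57 and 66 in wild type, a log2 ratio of -1.67 ± 0.54 that became -2.30 without csa replicate 2. The chloride channel gene LOC_Os12g25200 had 132, 61 and 129 in csa, against 27, 28 and 44 in wild type, a log2 ratio of 1.70 ± 0.39. An ATPase 3-like gene (LOC_Os12g44190) stood at -1.77 ± 0.41.

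The redox search terms matched 5 listed genes, 2 higher and 3 lower in csa, with SWEET16 among the higher through its annotation. They miss the glutaredoxin gene GRXC6 (LOC_Os04g42930) described above, which was higher at 1.40 ± 0.42. The haem peroxidase gene LOC_Os07g01410 had 5, 10 and 5 counts in csa, against 25, 37 and 69 in wild type, and its log2 ratio of -2.71 ± 0.56 was the lowest of the table. The peroxidase gene LOC_Os05g04470 had 381, 343 and 437 in csa, against 598, 944 and 931 in wild type, a log2 ratio of -1.09 ± 0.22, after -1.66 ± 0.47 at 6 h. A thioredoxin fold gene (LOC_Os03g44650) had 50, 43 and 43 in csa, against 91, 100 and 132 in wild type, a log2 ratio of -1.25 ± 0.18, although it had been higher in csa at 6 h with 1.44 ± 0.34. CYP78A11 (LOC_Os10g26340), also named PLASTOCHRON1 for its part in the timing of leaf initiation, had 524, 496 and 316 in csa, against 266, 186 and 229 in wild type, a log2 ratio of 0.97 ± 0.26. The 4-coumarate-CoA ligase gene 4CL1 (LOC_Os08g14760), of the phenylpropanoid pathway, stood at -1.89 ± 0.20. The pectinesterase inhibitor gene LOC_Os10g36500, whose product limits the modification of cell wall pectin, stood at -1.92 ± 0.44. The fatty aldehyde dehydrogenase gene LOC_Os02g43280 had 118, 61 and 98 in csa, against 428, 481 and 179 in wild type, a log2 ratio of -1.97 ± 0.45. Its 3 h call was in the other direction, at 1.82 ± 0.59 with overlapping counts of 10, 32 and 32 in csa, against 5, 5 and 11 in wild type.

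Further higher genes encode enzymes, inhibitors and organelle proteins. The poly(ADP-ribose) polymerase region gene LOC_Os03g12820 had 627, 843 and 620 counts in csa, against 332, 278 and 395 in wild type, a log2 ratio of 1.06 ± 0.21, after 1.92 ± 0.44 at 6 h. A hydrolase gene (LOC_Os10g41930) had 1445, 1197 and 1147 in csa, against 626, 538 and 694 in wild type, a log2 ratio of 1.03 ± 0.15, and was called higher at 6 h with 1.10 ± 0.37. The DUF567 gene LOC_Os05g24650 had 803, 1227 and 721 in csa, against 376, 398 and 407 in wild type, a log2 ratio of 1.22 ± 0.25. The wild type libraries were close together in this gene, and the csa spread came from replicate 2. The thaumatin gene LOC_Os12g43450, of a pathogenesis-related family, stood at 1.40 ± 0.38, and the cystatin gene LOC_Os05g41460, for a cysteine proteinase inhibitor, at 1.45 ± 0.45. A TIM14-like gene (LOC_Os03g56540), of the mitochondrial protein import motor, stood at 1.12 ± 0.30 and an AAA-type ATPase gene (LOC_Os07g09420) at 1.03 ± 0.27. The alpha/beta hydrolase gene LOC_Os07g06830 stood at 1.31 ± 0.29, the transferase domain gene LOC_Os08g07730 at 1.34 ± 0.31 and the Ap25-like gene LOC_Os02g43820 at 1.12 ± 0.39.

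The entries with little functional annotation were spread over both directions. LOC_Os12g32150, a conserved hypothetical gene, had 39, 34 and 42 counts in csa, against 9, 8 and 4 in wild type, a log2 ratio of 2.45 ± 0.33. Other higher ones were LOC_Os02g15169 at 1.82 ± 0.56, LOC_Os07g23120 at 1.66 ± 0.31 and LOC_Os09g15480 (DUF833) at 1.50 ± 0.35. Among the lower ones, LOC_Os03g46300 had 359, 302 and 384 in csa, against 848, 898 and 808 in wild type, a log2 ratio of -1.29 ± 0.11, and was called lower at 3 h with -1.36 ± 0.20. LOC_Os07g26100 had 23, 18 and 32 in csa, against 54, 124 and 197 in wild type, a log2 ratio of -2.36 ± 0.53, and was called lower at all 3 times. Lower genes with a domain of unknown function were LOC_Os03g64130 (DUF668) at -2.45 ± 0.53, LOC_Os03g51150 (DUF946) at -1.16 ± 0.39 and LOC_Os11g42030 (DUF594) at -1.18 ± 0.23. Lower genes of other kinds were LOC_Os03g55880 at -1.26 ± 0.39 and LOC_Os01g12110 at -1.24 ± 0.24, with the non-coding transcripts LOC_Os02g08170 at -2.08 ± 0.55 and LOC_Os09g33555 at -1.26 ± 0.28. The 3 entries outside the stretch with no annotation were LOC_Os01g15900 at 1.35 ± 0.27, LOC_Os03g41480 at -1.42 ± 0.28 and LOC_Os01g68269 at -2.52 ± 0.96, the last of which became -3.60 without csa replicate 2.

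**Figure D2:**
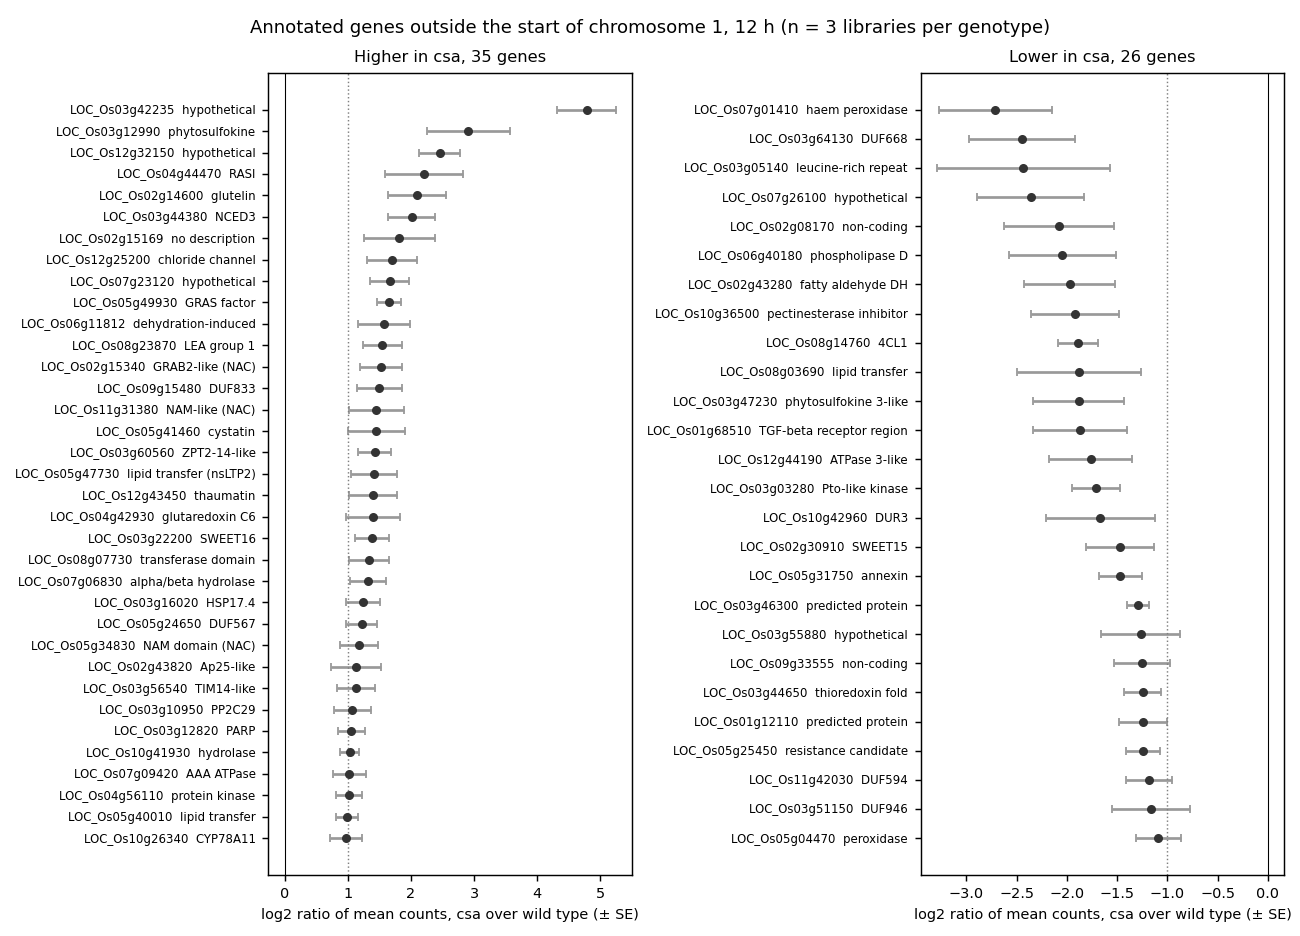
Log2 ratio of mean counts, csa over wild type, with SE bars (n = 3 libraries per genotype), for the 35 higher and 26 lower annotated genes outside the start of chromosome 1 at 12 h. Dotted lines mark an absolute log2 ratio of 1, and LOC_Os03g42235 stands apart at 4.78 while all other points lie between -2.71 and 2.91.

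Calls at 3 h and 6 h rest on libraries that the 12 h contrast did not use, though the labels do not say whether the times share plants or seed lots. Of the 85 genes, 29 (34.1%) were called at 3 h, where 4.91% of all tested genes were, and 34 (40.0%) at 6 h, where 10.3% were. The direction was the same for 25 of the 29 and 31 of the 34. These shared genes make up 2.76% of the 3 h calls and 1.42% of the 6 h calls. Among the 45 higher genes, 14 were also higher at 3 h (3.49% of tested genes) and 18 at 6 h (6.03%), and among the 40 lower genes 11 were also lower at 3 h (1.42%) and 13 at 6 h (4.30%). The tested genes are not matched to the members for level. At the start of chromosome 1, 12 of 21 genes were called at 3 h and 13 of 21 at 6 h, and outside it 17 of 64 and 21 of 64. The genes called at 12 h and at neither other time numbered 39, of which 6 lay in the stretch, TPI and pyruvate decarboxylase among them, and 33 outside it, among them RASI, GRXC6, phospholipase D and DUR3. Absence from a table says only that a gene was not called at that time.

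**Figure D3:**
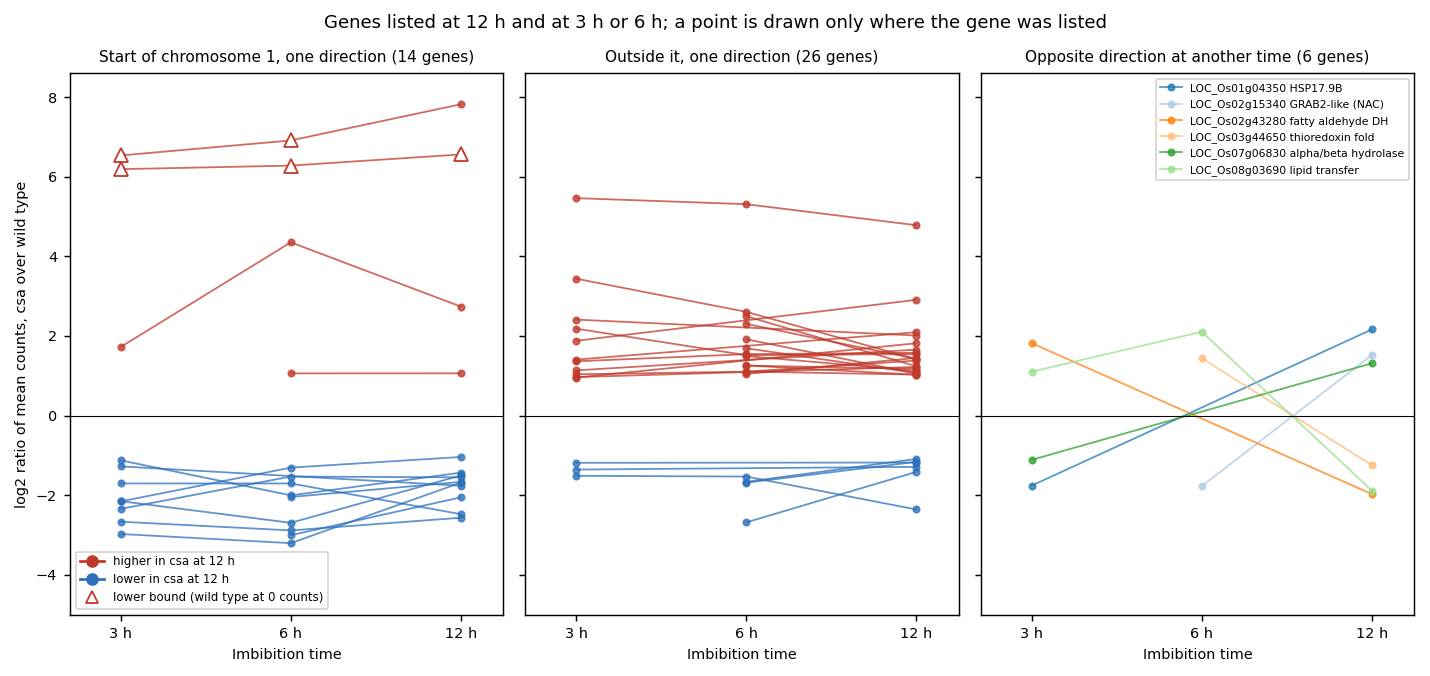
Log2 ratio of mean counts, csa over wild type, at 3 h, 6 h and 12 h for the 46 genes listed at 12 h and at another time, with points only where a gene was listed and lines joining them across an unlisted time. The 14 genes of one direction at the start of chromosome 1 and the 26 outside it stay on their side of 0, while 6 genes cross it, and triangles mark lower bounds where the wild type had 0 counts.

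Refitting the 85 listed genes with edgeR (quasi-likelihood test, p no larger than the largest p in the authors' deposited table, 0.000255, absolute log2 fold change of at least 1) kept 39 of them, 19 higher and 20 lower, 11 in the stretch and 28 outside it. The DESeq2 Wald test at the same p kept 55, of which 37 were among those 39. The number kept by edgeR fell to 31, 13 and 24 without csa replicates 1, 2 and 3. It fell to 28 and 20 without wild type replicates 1 and 2. Without wild type replicate 3, the library with the conflicting genotype field, it was 26. Each of these fits had fewer libraries at the same p limit. How much of a fall comes from the smaller group was not tested.

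**Figure D4:**
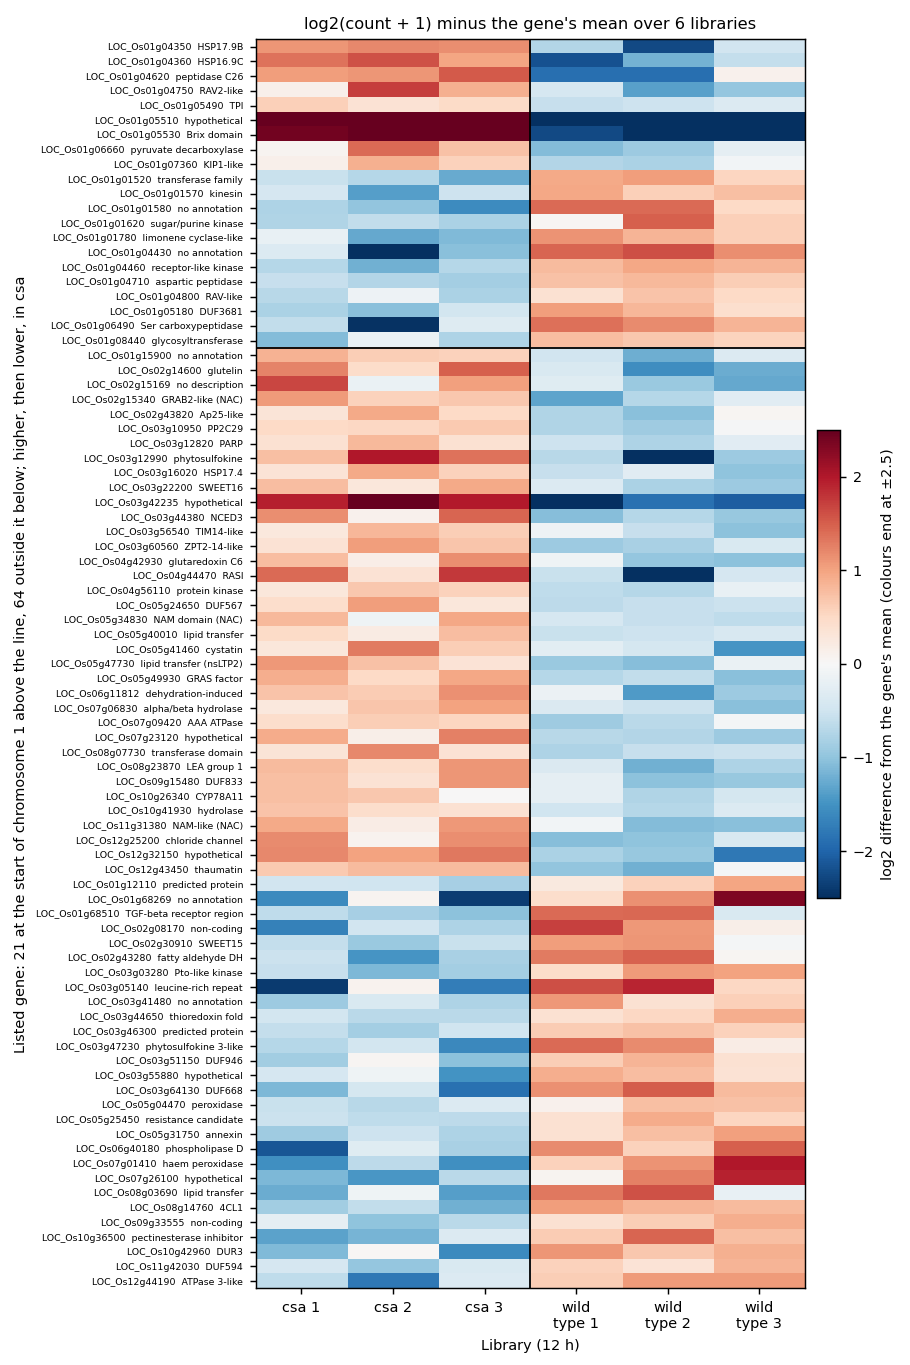
Log2(count + 1) of each of the 85 listed genes in each of the 6 libraries at 12 h, minus the gene's mean over the 6, with the 3 csa libraries left of the vertical line and the 21 genes at the start of chromosome 1 above the horizontal line. Red is above and blue below the gene's mean. By raw counts, wild type replicate 3 lay nearest the csa libraries in 22 of 45 higher and 20 of 40 lower genes, and replicate 1 in 18 and 15.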

How the data were processed

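RNA was measured in embryos of germinating seeds by sequencing. The 12 h table, as the authors deposited it, holds a raw read count per gene and library, with no normalization, for called genes only. Per the file headers, the authors' log2 fold change, p-value and FDR stand beside it. The submitters' processing notes name DESeq2 but no version. The aligner, the counter, its use of strand and of shared reads, and the build were not given in the sources used here. Therefore the small heat shock, lipid transfer and glutelin genes, which have close copies, are uncertain to that extent.

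Log2 ratios were computed from mean raw counts, as csa over wild type. No pseudocount was used. The SE follows from the spread of 3 libraries per group (delta method). A group with 0 counts was set to a floor of 3 counts over the group. Floors and exact intervals cover counting error only. Library scaling was recovered by least squares on the deposited fold changes (residual SD 0.00322 log2 units) and shifted the log2 ratios by a median of 0.045. The ranks implied by p and FDR gave the number of tested genes. Refits used edgeR 4.0.16 and DESeq2 1.42.0 in R 4.3.3 on the 85 listed rows only, and the code was tested on simulated data. Such a refit borrows its spread from selected genes, which the same libraries chose, so its counts show only how calls depend on the method and on single libraries.

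Every annotated gene is named with its log2 ratio, and library counts are given for those at the start of chromosome 1, for the 10 outside it with the smallest FDR in each direction, and for members of the search-term lists. Counts of SWEET15 and of genes with reversed or doubtful calls were added after their values were seen. The members and lists were chosen with earlier results of these data known. Samples were grouped by title. All sample columns were matched, leaving 0 unmatched. RefSeq gene numbers matched 73 of 85 entries. Stricter thresholds, other scalings, DESeq2 and leaving out each library were tried as alternatives.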

Additional observations from a re-analysis of the deposited data

Results flagged for a closer look

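Some genes had csa counts on opposite sides of the wild type counts at different times, without overlap at either time. The difference between times was not tested. HSP17.9B (LOC_Os01g04350) had a log2 ratio of 2.16 ± 0.44 at 12 h and of -1.76 ± 0.18 at 3 h. The GRAB2-like NAC gene LOC_Os02g15340 stood at 1.52 ± 0.33 at 12 h and at -1.77 ± 0.59 at 6 h, where its counts were 7, 7 and 15 in csa, against 24, 22 and 53 in wild type. The alpha/beta hydrolase gene LOC_Os07g06830 stood at 1.31 ± 0.29 at 12 h and at -1.11 ± 0.33 at 3 h, where it had 603, 576 and 281 counts in csa, against 1172, 886 and 1100 in wild type. The thioredoxin fold gene LOC_Os03g44650 stood at -1.25 ± 0.18 at 12 h and at 1.44 ± 0.34 at 6 h, where it had 498, 499 and 237 counts in csa, against 174, 163 and 119 in wild type. Groups of 3 libraries were too small for a check of single outlying libraries.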

How the results depend on the processing

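None of the 765 log2 ratios recomputed per gene changed sign, under the recovered scaling, a pseudocount of 1, median counts or without any single library. In the 84 genes without overlap of the groups, a pseudocount, median counts or leaving out a library could not change the sign. The largest moves without a library were those of LOC_Os01g05530, LOC_Os03g05140, LOC_Os01g68269, LOC_Os01g04620, LOC_Os10g42960 and LOC_Os01g04430, whose values stand beside them in the results. The lower bound of LOC_Os01g05510 ran between 5.97 and 6.68. At a stricter FDR of 0.01 in the authors' deposited table there were 44 genes, 23 higher and 21 lower, with 13 at the start of chromosome 1. At a deposited absolute log2 fold change of 2 there were 21 genes, 12 higher and 9 lower, with 8 at that start. Without the start of chromosome 1, 14 genes had the same direction at 3 h and 18 at 6 h. Widening that start to identifiers beginning LOC_Os01g1, an alternative chosen after seeing the data, gave 23 genes, and a filter on a mean of 10 counts removed none of the 85. The edgeR refit kept 39 genes, between 34 and 46 under other library scalings, 55 by the DESeq2 test, and between 13 and 31 without single libraries. Groups did not overlap in 84 to 85 genes without single libraries, a count that leaving out a library cannot lower. With the replicate number as a block 36 were kept. Same-numbered csa and wild type libraries deviated together with correlations of 0.00567, 0.0766 and 0.0372 across the listed genes. Not every library correlated best with its own number. These genes were selected for the genotype contrast, so the values cannot settle whether same-numbered libraries were paired. Depth, and genes that were not called, could not be examined.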
